A study of Danio rerio with 6 samples.

Results

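Some genes that were read in 2 libraries of control juveniles were almost absent from juveniles exposed to exemestane (EM), and 99 such genes are described here. In a further control library 67 of the 99 had more than 3 reads and 6 had none. The members were chosen by their measured values. A gene was kept when it had at least 20 read counts in both DMSO replicates 1 and 3 and when its lower CPM in those libraries, plus 0.5, was at least 8 times its highest CPM in the 3 EM libraries, plus 0.5. CPM is the count of a gene scaled to a library total of 1000000 counts. Of the 32520 genes in the count table, 16870 met the count minimum and 99 of these met the fold. DMSO replicate 2 was left out of the choice and is the only library in which the low EM values can be set against a control that did not choose the genes. The contrast of the EM libraries with DMSO replicates 1 and 3 is therefore a description and no test.

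EM is a steroid drug that blocks aromatase, which turns androgens into estrogens. EM-juveniles were kept in 10 µg/L EM with DMSO as its solvent, and solvent control juveniles (DMSO) in 10 µL/L DMSO, in both groups for 32 days. All fish were of the AB strain and, by the labels, 32 days old. Each of the 6 libraries holds polyA+ RNA from the whole bodies of 25 fish of unstated sex from a single tank, with 3 libraries per group. In such pools fewer cells of a type and less RNA per cell cannot be told apart.

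A growing oocyte stocks the egg with RNA and protein before the genome of the embryo becomes active. It makes the glycoproteins of the egg coat, called zona pellucida (ZP) proteins, which in zebrafish are synthesised in the ovary. It also stores mRNAs in a silent form with proteins that bind their untranslated ends and poly(A) tails, and it gathers germ plasm in the Balbiani body. Zebrafish of both sexes first form an ovary-like gonad with early oocytes, which are lost in the fish that become males, and estrogen favours the female course.

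The total count ranged from 4057579 to 7804654 in the EM libraries and from 3169530 to 7324337 in the DMSO libraries. DMSO replicate 2 stood apart, with the lowest total and 21182 genes detected, against 24418 to 24966 in each of the other libraries. Its part in the results was not tested, and its values are given separately. Values are listed in the order of replicates 1, 2 and 3, and no length of the genes was used, so that levels are compared between libraries and not between genes. Intervals are 95% Wilson intervals for shares and cover counting error only.

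The members together held 25.8, 12.7 and 15.8 CPM in the EM libraries, against 6301, 347 and 2689 CPM in the DMSO libraries. These sums correspond to 201, 53 and 64 reads in EM-juveniles and to 37931, 1100 and 19697 reads in controls. In percent of all counts, the members took 0.00258% (interval 0.00224 to 0.00296%), 0.00127% (0.00097 to 0.00166%) and 0.00158% (0.00124 to 0.00201%) of the EM libraries, and 0.630% (0.624 to 0.636%), 0.0347% (0.0327 to 0.0368%) and 0.269% (0.265 to 0.273%) of the DMSO libraries. The control libraries thus differed among themselves by far more than their counting error. The sum in DMSO replicate 1 was 2.34 times that in DMSO replicate 3, and the sum in DMSO replicate 3 was 7.75 times that in DMSO replicate 2. The sum in DMSO replicate 2 was still 13.5 times that of the highest EM library and 27.4 times that of the lowest.

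The near absence in EM-juveniles was reached at very low counts. In the EM libraries 55, 27 and 37 of the 99 members had at least 1 read, against 99, 93 and 99 in the DMSO libraries. No read was counted in any EM library for 33 members, and 85 members had at most 3 reads in each. The highest count of a member in an EM library was 23, for zpax1 in EM replicate 1, the library with the largest total. At these totals 3 counts correspond to 0.384, 0.718 and 0.739 CPM in the EM libraries, so a member listed at 0 may be present below that level.

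**Figure D1:**
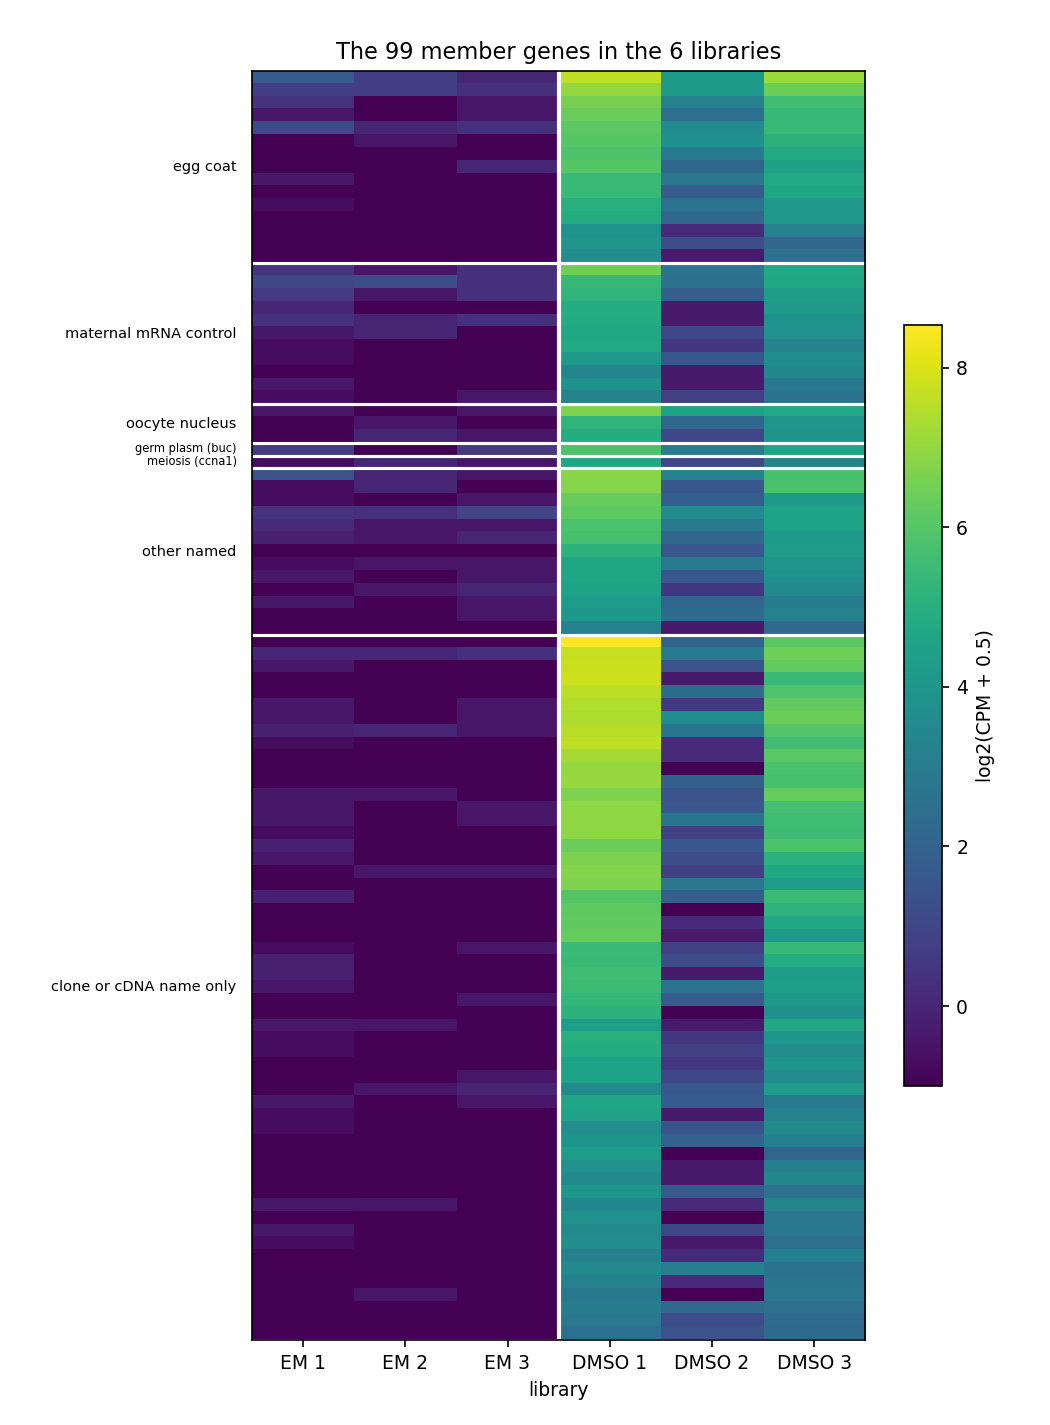
Heat map of the 99 members (rows, by function and then by reads in DMSO replicates 1 and 3) in the 6 libraries (columns, EM on the left), coloured by log2(CPM + 0.5). The EM columns are dark in nearly every row, DMSO 1 and DMSO 3 are bright because the rule asked for it, and DMSO 2 lies between them, with 67 members over 3 counts and 6 at 0.

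Most members with a gene name could be placed in groups of oocyte functions, the only kind of function that was looked up besides gonad genes. Names were found for all 99, and 55 of these are clone or cDNA names that carry no function. Of the 44 with a gene name, 15 encode egg coat proteins, 11 act on stored mRNA, 3 belong to the oocyte nucleus and its transcription, 1 organises germ plasm, 1 is a meiotic cyclin and 13 have other names. The groups come from lists of oocyte and gonad genes, with zpax1 and zpax4 added to the egg coat by their names.

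The egg coat genes held 7.18, 3.11 and 2.96 CPM together in the EM libraries, against 952, 106 and 541 CPM in the DMSO libraries. For the genes of this group with the most control reads, zpax1 had 2.95, 1.20 and 0.493 CPM in EM-juveniles, against 199, 18.0 and 136 CPM in controls. The related zpax4 had 1.15, 1.20 and 0.739 CPM in EM-juveniles, against 131, 17.0 and 84.5 CPM in controls. Both genes were lower in every EM library than in any control, DMSO replicate 2 included. Among the ZP3-type glycoproteins, zp3e had 0.769, 0 and 0.246 CPM in EM-juveniles, against 96.2, 8.52 and 48.5 CPM in controls. The gene zp3b had 1.67, 0.479 and 0.739 CPM in EM-juveniles, against 70.3, 11.7 and 43.7 CPM in controls. In both genes DMSO replicate 2 was the lowest control and still above the EM range. The neighbouring genes zp3a.2 and zp3a.1 showed the same order. For zp3a.2 the values were 0.256, 0 and 0.246 CPM in EM-juveniles, against 81.6, 5.05 and 41.4 CPM in controls, and for zp3a.1 they were 0, 0.239 and 0 CPM in EM-juveniles, against 64.9, 13.3 and 34.5 CPM in controls. Among the ZP2-type genes, zp2.2 had no read in any EM library, against 58.0, 6.94 and 28.1 CPM in controls. In all, 6 of the 15 egg coat members had no read in EM-juveniles. In all 15 DMSO replicate 2 was above every EM library, as it was for 19.9% of all genes that met the count minimum. Here and in the groups below, the distance of the EM libraries from DMSO replicates 1 and 3 was set by the rule. Only the place of DMSO replicate 2 was left free.

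Members that act on stored mRNA held 44, 14 and 13 reads together in the EM libraries, against 1969, 69 and 1186 reads in the DMSO libraries. The gene zar1, which encodes an RNA-binding regulator of translation in oocytes, had 0.897, 0.239 and 0.739 CPM in EM-juveniles, against 87.0, 5.68 and 27.3 CPM in controls. Its paralogue zar1l had 0.128, 0 and 0 CPM in EM-juveniles, against 26.9, 0.947 and 9.15 CPM in controls. Thus zar1 lay clearly above the EM range in DMSO replicate 2, whereas zar1l rested there on 3 reads. The gene cpeb1b, whose product binds the cytoplasmic polyadenylation element of stored mRNAs, had 1.54, 1.91 and 0.739 CPM in EM-juveniles, against 41.7, 5.36 and 25.9 CPM in controls. The gene lsm14b, which encodes a component of repressed mRNA particles, had 1.03, 0.239 and 0.739 CPM in EM-juveniles, against 37.0, 3.16 and 19.5 CPM in controls. In both genes the EM and control libraries did not overlap. DMSO replicate 2 was above every EM library in 90 of the 99 members, against 19.9% of all genes with the minimum of counts.

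A further pair in this group did overlap. The gene patl2, an oocyte member of the Pat1 family of mRNA-silencing proteins, had 0.513, 0 and 0 CPM in EM-juveniles, against 29.7, 0.316 and 17.5 CPM in controls. The gene caprin2, which encodes an RNA-binding protein, had 0.769, 0.479 and 0.739 CPM in EM-juveniles, against 28.9, 0.316 and 14.3 CPM in controls. DMSO replicate 2 had 1 read of each, which puts it below EM replicate 1 in patl2 and below every EM library in caprin2. The poly(A)-binding protein gene pabpc1l had 2, 2 and 0 reads in EM-juveniles, against 155, 5 and 99 in controls. The rest of the group comprised slbp2, which binds histone mRNA in the oocyte, btg4, which recruits the deadenylase that removes maternal mRNA, the zinc-finger gene cth1 and the nuclear poly(A)-binding protein gene pabpn1l. They had 0 to 2 reads in each EM library, against 41 to 102 in DMSO replicates 1 and 3 and 1 to 8 in DMSO replicate 2.

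Members of the oocyte nucleus were nearly unread in EM-juveniles, and they differed in how much DMSO replicate 2 kept. The gene h1m, the maternal linker histone, had 0.256, 0 and 0.246 CPM in EM-juveniles, against 103, 22.4 and 27.0 CPM in controls, and DMSO replicate 2 therefore came close to DMSO replicate 3. The gene gtf3ab, which encodes a transcription factor IIIA for ribosomal RNA, had 0, 0.239 and 0 CPM in EM-juveniles, against 37.0, 4.10 and 15.7 CPM in controls. The gene kpna7, an importin alpha of oocytes and early embryos, had 0, 0.479 and 0.246 CPM in EM-juveniles, against 29.1, 1.58 and 14.6 CPM in controls. In these 3 genes every control lay above every EM library, and the log2 ratio of DMSO replicate 2 to the mean of the other controls was -1.51 for h1m, -2.55 for gtf3ab and -3.43 for kpna7. The organiser of the Balbiani body, buc, had 1.15, 0 and 0.986 CPM in EM-juveniles, against 58.3, 7.57 and 23.3 CPM in controls. Its groups did not overlap either, as in 90 of the 99 members. The meiotic cyclin gene ccna1 had 1, 2 and 1 reads in EM-juveniles, against 156, 5 and 66 in controls.

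The 13 members with other names were not all of known oocyte function. The gene eef1a1l3, named after the translation elongation factor, had 2.18, 0.479 and 0.246 CPM in EM-juveniles, against 114, 9.15 and 53.2 CPM in controls. The gene retsatl, named after retinol saturase, had 0.128, 0.479 and 0 CPM in EM-juveniles, against 112, 2.52 and 54.6 CPM in controls. Both held the control libraries above the EM libraries throughout. The gene 42sp43 carries the name of a Xenopus oocyte protein that stores ribosomal RNA, and it had 0.128, 0 and 0.246 CPM in EM-juveniles, against 79.2, 3.16 and 17.7 CPM in controls. The alpha-tubulin gene tuba4l had 0.769, 0.718 and 1.48 CPM in EM-juveniles, against 71.3, 12.0 and 22.5 CPM in controls. The receptor gene lrp13, whose relatives bind vitellogenin in fish ovaries, had 0.641, 0.239 and 0.246 CPM in EM-juveniles, against 56.3, 7.26 and 22.5 CPM in controls. In these genes too the groups did not overlap, as in 90 of the 99 members. The qdpr-type genes, related to dihydropteridine reductase, gave 3 members, of which qdprb.4 and qdprb.3 had no read in EM-juveniles. For qdprb.4 the controls had 215, 8 and 134 reads. The others in this group were the claudin gene cldnd, crp2, the carbonic anhydrase gene ca15b, the oogenesis-related gene org and the thymosin gene tmsb5.

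The check that the choice did not use was DMSO replicate 2. It lay above every EM library for 90 of the 99 members. Among all 16870 genes with the same minimum of counts, this was so for 19.9%. It was at least 2 times the highest EM library for 75 members, against 5.61% of all genes, and at least 8 times for 16 members, against 0.16% of all genes, with 0.5 CPM added to both values. The 16 are therefore the members that would also pass the fold of the rule in this library. The minimum of 20 counts was not asked of it, and si:ch1073-263o8.2, for example, had 12 reads there. The median log2 ratio of DMSO replicate 2 to the mean of the EM libraries was 2.18 over the members (quartiles 1.18 and 2.94) and -0.83 over all genes. On DESeq2 size factors these medians were 2.76 and -0.08, so the distance between members and all genes changed little with the scaling, from 3.01 to 2.84. With TMM factors or size factors DMSO replicate 2 was above every EM library for 92 members, against 38.9% and 40.2% of all genes.

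The EM side of this check was still chosen to be low, so the choice was repeated without each EM library in turn and DMSO replicate 2 was set against the library left out. Without EM replicate 1, 102 genes were chosen, and DMSO replicate 2 was above EM replicate 1 for 93 of them (91.2%), against 26.8% of all genes. Without EM replicate 2 it was above for 96 of 103 (93.2%), against 27.3% of all genes. Without EM replicate 3 it was above for 94 of 101 (93.1%), against 26.9%. The library left out had no read for 44, 72 and 62 of the genes chosen. For those genes 1 read in DMSO replicate 2 was enough to place it above. The median log2 ratio of DMSO replicate 2 to the library left out was 2.00, 2.26 and 2.21. Neither side of these ratios was used to choose the genes, and each compares 1 library with 1 other.

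**Figure D2:**
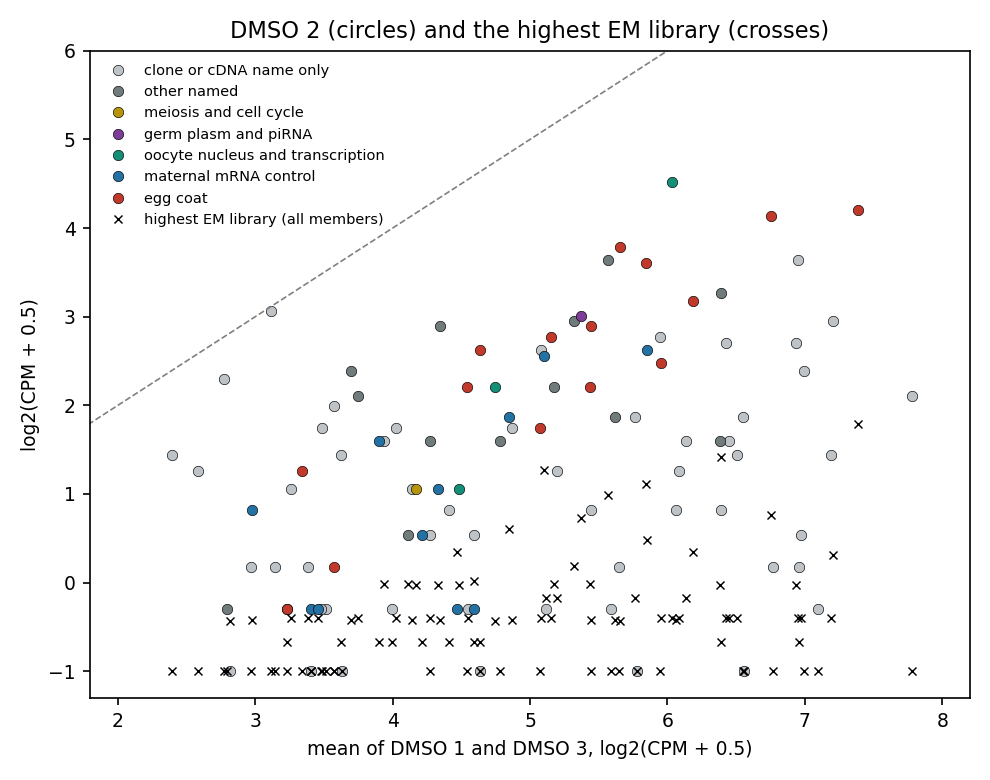
Scatter plot of the 99 members, with the mean of DMSO replicates 1 and 3 on the horizontal axis and, on the vertical axis, DMSO replicate 2 (circles, coloured by function) and the highest EM library (crosses), all as log2(CPM + 0.5). The dashed line marks equal values. The circles lie below the line, with si:dkey-241l7.5 just under it. They lie above the crosses of the same genes in 90 of 99 members, against 19.9% of all genes with the same minimum of counts.

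For the remaining 9 members DMSO replicate 2 did not exceed the EM libraries. Among these, zgc:171977 and zgc:171750 had no read in any EM library nor in DMSO replicate 2, although DMSO replicates 1 and 3 had 790 and 408 reads of the first gene and 436 and 265 of the second. The gene si:dkey-90l23.1 had 3, 0 and 0 reads in EM-juveniles, against 295, 1 and 141 in controls. The gene zgc:173837 had no read in any EM library, against 213, 0 and 98 in controls. These 4 genes and patl2 are the 5 of the 9 with the most reads in DMSO replicates 1 and 3, and caprin2 comes next. In 6 of the 99 members DMSO replicate 2 was at 0, and in a further 26 it had 1 to 3 reads, so for 32 members the position of this library rests on the floor of 3 counts.

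Read-count tests across all genes gave the following. With all 6 libraries, the Wald test of DESeq2 called 94 of the 99 members lower in EM-juveniles at an adjusted p under 0.05, beside 0.663% of all 23966 genes tested, and nothing is read from this count because the rule used the same contrast. The median log2 fold change was -7.78 over the members and -0.003 over all genes. The quasi-likelihood test of edgeR called 0 members on the same libraries, and 0 of all 19264 genes tested. It tested 53 members, and all 53 had an unadjusted p under 0.05, as had 759 of all genes. The smallest adjusted p of a member was 0.0636. Limma voom with sample quality weights called 53 of 53 members, beside 0.4% of all genes. With so few EM reads, the members entered both tests mostly through the DMSO libraries, and nothing is read from these counts. With DMSO replicate 2 as the only control, DESeq2 gave an adjusted p to 26 members and called 25 of them lower in EM-juveniles, while 14.9% of the 19350 genes tested were called lower. Without the filter on low counts, 94 members were tested and 39 were called lower, beside 10.2% of all genes tested. In these fits the lone control is assumed to vary like the EM libraries, and the EM libraries are those that chose the members. As 85 members had at most 3 reads in every EM library, members passed the filter on low counts mostly through DMSO replicate 2. The members tested with the filter were thus mostly those with many reads in that library. Nothing is read from how many of them were called.

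The members did not fall in DMSO replicate 2 to the same degree. The summed CPM of the members in this library was 7.72% of the mean of DMSO replicates 1 and 3. By group it was 24.8% for the oocyte nucleus, where h1m gave 71 of the 89 reads, 18.5% for buc, 14.2% for the egg coat, 13.3% for the other named genes, 9.03% for ccna1, 8.90% for the genes of stored mRNA and 4.23% for the genes with clone or cDNA names. The median log2 ratio of DMSO replicate 2 to the mean of DMSO replicates 1 and 3 was -3.33 over all members and -0.80 over all 16870 genes. In CPM it was -2.62 for the 15 egg coat genes and -4.06 for the 55 genes with clone or cDNA names. On DESeq2 size factors the medians were -2.74 over all members and -0.11 over all genes. The shares kept in DMSO replicate 2, here and below, are in CPM and depend on this scaling. DMSO replicate 1 was above DMSO replicate 3 for 96 of the 99 members, with a median log2 ratio of 1.00, against -0.02 over all genes. In CPM the 3 control pools took the order replicate 1 over replicate 3 over replicate 2 in 95 members. How many of all genes took this order was not counted. The rule asked for high values in DMSO replicates 1 and 3 only, so a lower DMSO replicate 2 is partly given by the choice.

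The composition of the member reads therefore differed between the control libraries. Egg coat genes gave 27.9% (interval 22.1 to 34.4%), 24.5% (14.9 to 37.6%) and 18.8% (11.1 to 30.0%) of the member reads in the EM libraries. They gave 15.1% (14.7 to 15.5%), 30.6% (28.0 to 33.4%) and 20.1% (19.6 to 20.7%) in the DMSO libraries. DMSO replicate 2 was thus above the other controls beyond counting error, and the interval of every EM library overlaps that of DMSO replicate 2. The intervals of EM replicates 2 and 3 are wide and overlap those of the other controls as well. Genes of stored mRNA went another way, with 21.9% (16.7 to 28.1%), 26.4% (16.4 to 39.6%) and 20.3% (12.3 to 31.7%) of the member reads in the EM libraries, against 5.19% (4.97 to 5.42%), 6.27% (4.99 to 7.86%) and 6.02% (5.70 to 6.36%) in the DMSO libraries. There DMSO replicate 2 was close to the other controls and the EM shares were higher than all of them. These EM shares rest on 44, 14 and 13 reads. The rule chose the genes by their values in the EM libraries and in DMSO replicates 1 and 3. Differences in shares between EM and control libraries are therefore a description and no test. Genes with clone or cDNA names gave 25.4%, 18.9% and 23.4% of the member reads in the EM libraries, against 65.6%, 35.1% and 60.6% in the DMSO libraries.

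Many of the members with clone names were neighbours in the genome. In the gene order of RefSeq for the assembly GRCz12tu, which is not the build of the counts and was used for names and order only, 79 of the 99 members could be placed. Another member lay within 5 protein-coding genes for 33 of the 79 (41.8%), against 2.23% of the 13296 other genes placed, and 22 members were directly next to another. These 33 form 11 runs. Several of the unplaced members share the name of a sequenced clone, such as si:dkey-46g23.2, si:dkey-46g23.3 and si:dkey-46g23.5, and in all 44 members were in a run or shared a clone name with another member. Neighbours of this kind are often near-identical copies. Whether the counting divided reads between such copies or left them out was not examined. Counts of single genes in a run and their sum are therefore uncertain.

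The longest run had 7 members among 8 consecutive genes, from zgc:171977 through zgc:152652, si:ch211-146l10.7, zgc:171750, zgc:171474 and zgc:173856 to si:ch211-146l10.8. Together they had 5, 0 and 1 reads in EM-juveniles, against 6007, 26 and 2998 in controls. DMSO replicate 2 therefore kept 1.17% of the mean CPM of DMSO replicates 1 and 3, and the highest of its genes there was zgc:173856 with 10 reads. This run gave 2.49% (interval 1.07 to 5.69%), 0% (up to 5.66% allowed by 3 counts) and 1.56% (0.276 to 8.33%) of the member reads in the EM libraries, against 15.8% (15.5 to 16.2%), 2.36% (1.62 to 3.44%) and 15.2% (14.7 to 15.7%) in the DMSO libraries. The genes before the run were read in every library. The gene vps41, for a protein of vesicle fusion with the lysosome, had 373, 202 and 184 reads in EM-juveniles, against 188, 57 and 350 in controls. The gene cdv3 had 817, 474 and 742 reads in EM-juveniles, against 1117, 265 and 778 in controls.

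**Figure D3:**
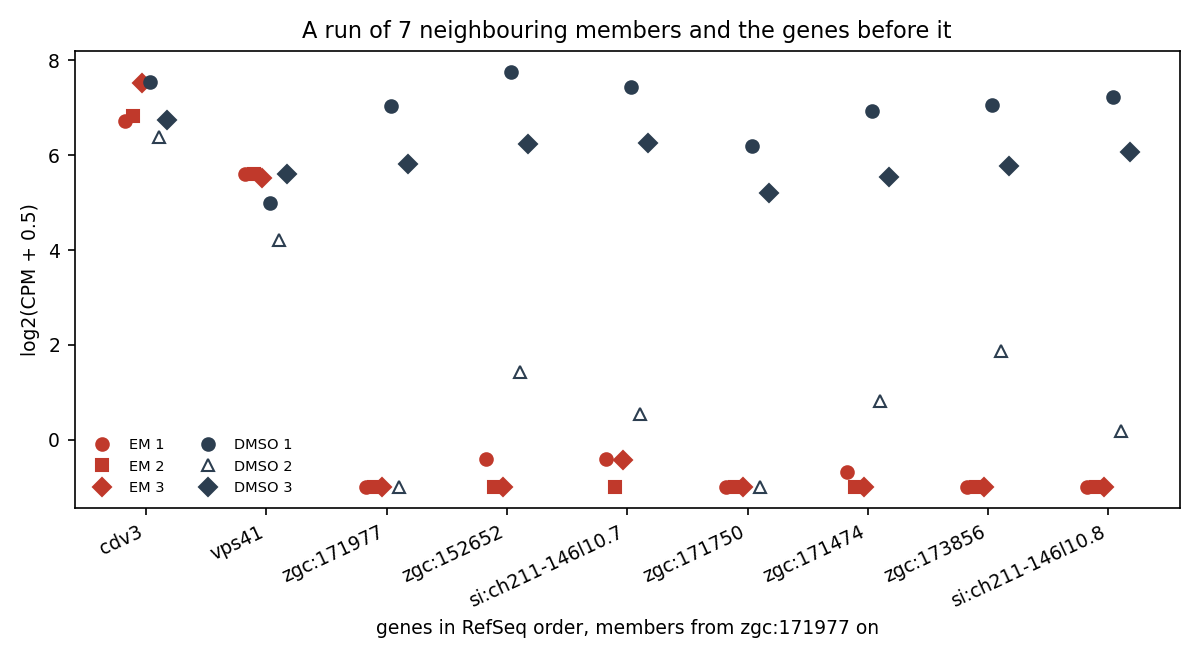
Levels of the longest run of neighbouring members and of the genes before it, in RefSeq order from left to right, as log2(CPM + 0.5), with 1 point per library (EM red, DMSO dark, DMSO 2 as open triangles). The genes cdv3 and vps41 are read in all 6 libraries, whereas each of the 7 members is high in DMSO 1 and DMSO 3 and at most 3.16 CPM in DMSO 2.

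The other runs ranged widely in DMSO replicate 2. The 3 members si:ch1073-263o8.2, si:dkey-229d11.5 and si:ch211-263m18.4 stood next to each other and had 1, 0 and 0 reads in EM-juveniles, against 3895, 15 and 974 in controls, so that DMSO replicate 2 kept 1.21% of the mean of the other controls. Of these, si:ch1073-263o8.2 had no read in any EM library, against 371, 3.79 and 67.2 CPM in controls. The run of zgc:173556, zp3 and zp3.2 had 5, 0 and 1 reads in EM-juveniles, against 1424, 76 and 945 in controls, which is 13.1% in DMSO replicate 2. The run of zp2.2, zp2.1 and zp2.5 had no read in EM-juveniles, against 515, 29 and 275 in controls, which is 14.9%. The pair zp3a.2 and zp3a.1 kept 16.5%. The egg coat runs thus kept a larger share in DMSO replicate 2 than the run that starts with zgc:171977.

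The members that kept most in DMSO replicate 2 were the pair si:dkey-241l7.5 and si:dkey-241l7.6. The gene si:dkey-241l7.5 had no read in any EM library, against 66, 25 and 39 reads in controls. Its neighbour si:dkey-241l7.6 had no read in any EM library either, against 46, 14 and 37 reads in controls. Together they had 0 reads in EM-juveniles, against 112, 39 and 76 in controls, and DMSO replicate 2 kept 84.9% of the mean of the other controls. In CPM si:dkey-241l7.5 was the only member for which DMSO replicate 2 was above DMSO replicate 3. How many members were so on other scalings was not counted. The pair stood at the end of a gradient. Its log2 ratios of DMSO replicate 2 to the mean of the other controls were -0.04 and -0.48, followed by -0.96 for si:ch211-226h8.14 and -1.31 for tmsb5. The run of si:ch211-226h8.14 and zgc:171781 kept 27.4%.

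**Figure D4:**
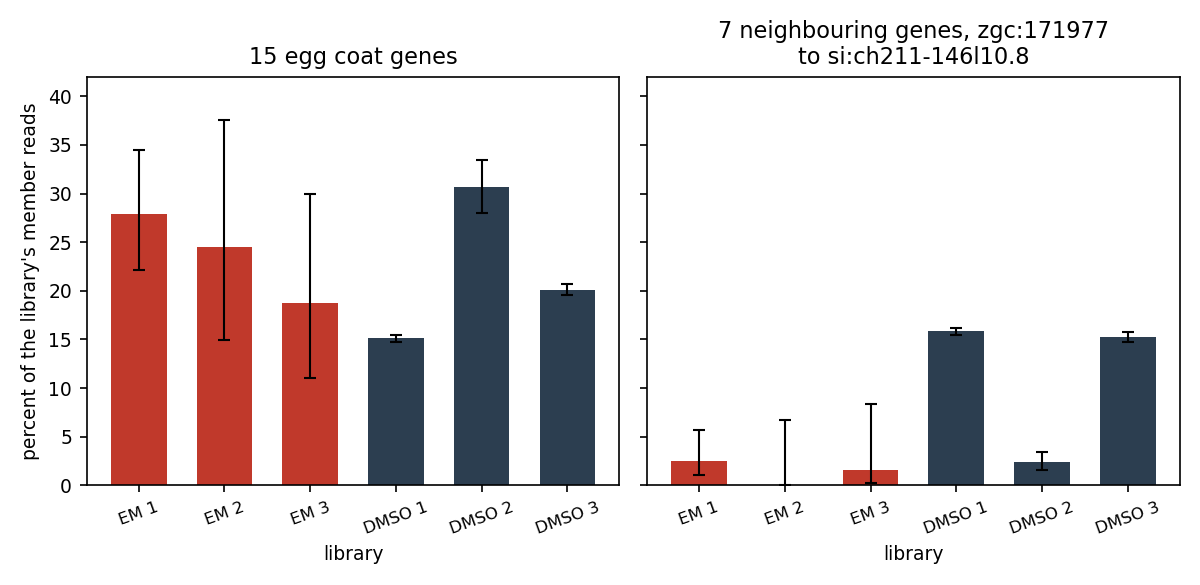
Bars give the percent of each library's member reads that came from the 15 egg coat genes (left) and from the run of 7 neighbouring genes (right), with 95% Wilson intervals, EM libraries in red and DMSO libraries in dark blue. In DMSO 2 the egg coat share is 30.6% and the run's share 2.36%, against 15.1% and 15.8% in DMSO 1.

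The reads behind the members were unequal. In order of the reads in DMSO replicates 1 and 3, the leading members were si:ch1073-263o8.2, zpax1, wu:fi42e03, zgc:152652, si:dkey-229d11.3, CABZ01059627.3, si:ch211-146l10.7, zgc:173556, zgc:111868 and si:dkey-229d11.5. The gene wu:fi42e03 had 0.513, 0.479 and 0.739 CPM in EM-juveniles, against 208, 7.26 and 85.3 CPM in controls. The gene si:dkey-229d11.3 had no read in EM-juveniles, against 230, 0.316 and 42.3 CPM in controls. Both show the order of the controls described above, and DMSO replicate 2 held 23 reads of the first and 1 of the second. In DMSO replicate 2 the most reads came from h1m with 71, zpax1 with 57, zpax4 with 54, zp3a.1 with 42 and then tuba4l and zgc:173556 with 38 each.

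The threshold of the rule cut through genes of the same kind. Just inside it were pabpn1l, si:dkeyp-46h3.8 and zp2.1, with ratios of 8.17, 8.65 and 8.92. Just outside it were elavl2, si:ch211-12h2.6 and npm2b, with ratios of 7.98, 7.88 and 7.84. The gene elavl2, an RNA-binding protein gene, had 7, 3 and 3 reads in EM-juveniles, against 92, 24 and 78 in controls, and npm2b, a maternal nucleoplasmin, had 3, 4 and 2 reads in EM-juveniles, against 107, 32 and 80 in controls. The mirrored rule, with the groups exchanged, found 1 gene of 15078. It asked for 20 counts in every EM library, whereas the rule asked for them in DMSO replicates 1 and 3 only. The numbers found by the rules are therefore not like for like.

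The other genes of the oocyte lists were counted as well, since the lists hold more genes than the members. Of the egg coat list, 16 of 19 genes tested were called lower in EM-juveniles by DESeq2 with all 6 libraries and 0 higher, beside 0.663% of all genes called lower, but 13 of the list are members chosen on this contrast. Of the list for stored mRNA, 14 of 26 were called lower and 0 higher, with 11 members. The corresponding counts were 8 of 14 for the oocyte nucleus and transcription, with 3 members, 4 of 16 for germ plasm and piRNA, with 1 member, and 5 of 24 for meiosis and the cell cycle, with 1 member. Of the growth factors of the oocyte 1 of 3 was called lower, and of gonadal steroid and somatic genes 1 of 14, in both cases with no member. None of the genes in these 7 lists was called higher, beside 101 of all 23966 genes tested. At that share few or none would be called in lists of this size, so nothing is read from it. Without the members, 3 of 6 egg coat genes, 3 of 15 for stored mRNA, 5 of 11 for the oocyte nucleus, 3 of 15 for germ plasm and 4 of 23 for meiosis were called lower. These counts are no independent check. The contrast is that of the rule, the lists were chosen with earlier results of these data known, and some called genes, such as elavl2, npm2b and zp2.3, missed the rule narrowly. Most reads of the list for stored mRNA came from genes that are no members, such as ybx1, a cold-shock RNA-binding protein of many tissues, with 1632, 1588 and 1426 CPM in EM-juveniles, against 1931, 4088 and 1898 CPM in controls (adjusted p = 0.596, DESeq2). Of the oocyte markers zp3b, zar1 and buc are members, and the transcription factor gene figla, which drives ZP genes in mammals, missed the rule with 1, 1 and 0 reads in EM-juveniles, against 60, 1 and 26 in controls. The growth factor genes gdf9 and bmp15 had 0 to 2 reads in each EM library, against 10 and 5 reads of gdf9 and 12 and 8 reads of bmp15 in DMSO replicates 1 and 3, and at most 1 in DMSO replicate 2. The egg coat gene zp2.3, with 0, 0 and 0 reads in EM-juveniles, against 19, 11 and 24 in controls, missed the count minimum of the rule and was called lower (adjusted p = 0.000372, DESeq2). The called gene of the list of gonadal steroid and somatic genes was cyp11a1, for a side-chain cleavage enzyme that starts steroid synthesis. It had 0, 0 and 0 reads in EM-juveniles, against 29, 1 and 25 in controls, and missed the rule narrowly with a ratio of 7.83.

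Some markers of germ cells that both sexes express remained readable in every EM library, and none of that list is a member. The RNA helicase gene ddx4 (vasa) had 10.9, 6.70 and 4.44 CPM in EM-juveniles, against 36.2, 3.47 and 21.2 CPM in controls, and piwil1, of the piRNA pathway, had 12.3, 10.5 and 7.15 CPM in EM-juveniles, against 38.9, 3.79 and 19.7 CPM in controls. Neither gene passed the test of DESeq2 with all libraries (adjusted p = 0.561 and 0.789). In CPM DMSO replicate 2 lay below all EM libraries for both. With DMSO replicate 2 as the only control the log2 fold changes of DESeq2 were only 0.32 and 0.63, and nothing is read from 1 control library. The 5 genes of that list summed to 25.1, 18.2 and 12.3 CPM in EM-juveniles, against 88.5, 12.0 and 50.1 CPM in controls. That sum is carried by ddx4 and piwil1. Of the 5 genes 1 was called lower, beside 0.663% of all genes tested. The called gene was dazl, an RNA-binding protein gene of germ cells, with 1.28, 0.957 and 0.493 CPM in EM-juveniles, against 8.31, 3.79 and 6.01 CPM in controls (adjusted p = 0.00178, DESeq2). The germ cell genes dnd1 and nanos3 were at or under 4 reads in every EM library, against 23, 3 and 16 reads of dnd1 and 8, 0 and 8 reads of nanos3 in controls. In dazl DMSO replicate 2 was thus above every EM library, unlike in ddx4 and piwil1. For dnd1 DMSO replicate 2 was above them too, with 0.947 CPM against at most 0.513 CPM, but this rests on 3 reads.

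**Figure D5:**
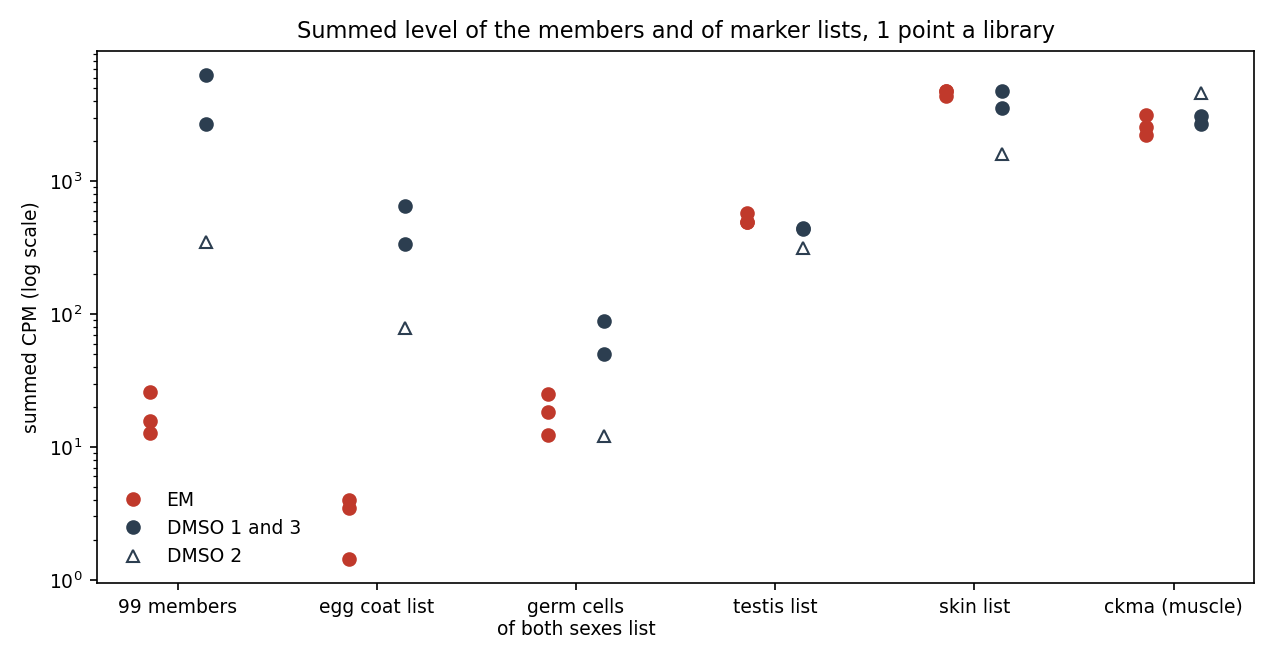
Summed CPM on a log axis of the 99 members, of 4 marker lists (egg coat, germ cells of both sexes, testis and skin) and of the muscle gene ckma, with EM libraries in red on the left of each pair and DMSO libraries in dark blue on the right (DMSO 2 as an open triangle). The members lie between 12.7 and 25.8 CPM in EM libraries and between 347 and 6301 CPM in DMSO libraries, while the testis list lies between 490 and 576 CPM in EM libraries and between 316 and 441 CPM in DMSO libraries, nearly all of it from gapdhs.

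Among markers of the testis list 0 of 4 genes tested were called, beside 159 genes lower and 101 higher of all 23966 tested. The list summed to 576, 490 and 497 CPM in EM-juveniles, against 434, 316 and 441 CPM in controls. Nearly all of this sum was gapdhs, a glycolytic enzyme gene of sperm in mammals, with 560, 479 and 488 CPM in EM-juveniles, against 430, 309 and 437 CPM in controls. Of the others, tekt1, which encodes a protein of cilia and flagella, had 16, 5 and 5 reads in EM-juveniles, against 11, 22 and 3 in controls. The gene amh, the anti-Müllerian hormone gene of the early testis, had 99, 37 and 25 reads in EM-juveniles, against 8, 0 and 20 in controls. It did not pass the test with all libraries (adjusted p = 0.0827, DESeq2). With DMSO replicate 2 as the only control its log2 fold change was 6.55, and that library had 0 reads of it. Markers of the ovarian follicle summed to 1.54, 1.20 and 1.97 CPM in EM-juveniles, against 1.66, 0.316 and 1.09 CPM in controls, close to the floor in every library. This sum holds only 3 of the 5 listed genes, cyp19a1a, fshr and lhcgr. The listed foxl2a and foxl2b could not be matched to a single gene by name, so their levels are not given. The same holds for sox9a of the testis list. The estrogen-dependent yolk precursor gene vtg1 had 0, 2 and 6 reads in EM-juveniles, against 4661, 0 and 2 in controls, so that DMSO replicate 1 held nearly all of its reads. Skin markers summed to 4765, 4746 and 4399 CPM in EM-juveniles, against 3534, 1604 and 4811 CPM in controls, and DMSO replicate 2 was the lowest library there. It was the highest library for the muscle creatine kinase gene ckma, with 2579, 3122 and 2238 CPM in EM-juveniles, against 2695, 4585 and 3089 CPM in controls. The same held for the cone opsin gene opn1mw1, with 60.3, 83.8 and 71.2 CPM in EM-juveniles, against 40.0, 254 and 41.0 CPM in controls. Of the liver genes, DMSO replicate 2 was the lowest library for tfa (1479 CPM, against 3824 to 5953 CPM in the others). It was the highest for fabp10a (664 CPM, against 457 to 553 CPM). For the blood gene hbaa1 it was the lowest (311 CPM, against 516 to 656 CPM). The list of neurons and glia summed to 684 CPM there, within the 552 to 792 CPM of the others. The genes ckma, opn1mw1 and hbaa1 were each the only gene of their list matched by name. How far the makeup of the pools, the depth or DMSO replicate 2 enter the values of the members was not tested.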

How the data were processed

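The authors prepared stranded polyA+ libraries, aligned the reads with HISAT2 2.0.5 to GRCz11 with Ensembl annotation, removed duplicates with SAMtools 1.5 and counted exon reads on the reverse strand with HTSeq 0.9.1. The deposited values are raw read counts per Ensembl gene, with no normalisation. Removing duplicates caps high counts. The members and gene lists were chosen with earlier results of these data known. Groups and replicate numbers come from the sample titles, and nothing pairs the same-numbered tanks. CPM used the column sums and log2 ratios a pseudocount of 0.5 CPM. Symbols came from a reference table that matched 29201 identifiers (83 members) and from gene names in the study's tables (16 members). DESeq2 1.42.0 (two-sided Wald test, Benjamini-Hochberg adjusted p under 0.05, all 6 libraries, no covariate) was the principal test, as in the study, with edgeR 4.0.16 and limma 3.58.1 in R 4.3.3 as alternatives. Replicates are separate tanks.

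Named genes were up to 6 members per function list by reads in DMSO replicates 1 and 3, the 10 members with most of those reads, the 5 with most reads in DMSO replicate 2, up to 5 not above the EM libraries there, and 3 on each side of the threshold. Genes of the neighbour runs, members outside the lists and single markers were named after their values were seen. No sequences are shown.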

Additional observations from a re-analysis of the deposited data

How the results depend on the processing

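The number of chosen genes stayed within 1.5 times of 99 in every alternative but 1. It was 98 with TMM factors, 99 with size factors, 128 and 67 with folds of 4 and 16, 115 and 78 with pseudocounts of 0.1 and 1 CPM, and 101 to 146 when a library was left out, the highest without DMSO replicate 3. Only 16 genes remained when DMSO replicate 2 also had to pass the fold. The count of members with DMSO replicate 2 above every EM library (90) was 88 to 92 under the other scalings, 92 to 116 when a library was left out of the choice (90.2 to 91.3% of the genes chosen, but 79.5%, 116 of 146, without DMSO replicate 3), and 16 for at least 8 times. The median log2 ratio of DMSO replicate 2 to the mean of the EM libraries (2.18) was 3.25 and 1.53 with pseudocounts of 0.1 and 1 CPM, 2.76 with size factors, 2.72 with TMM factors, and 2.00 to 2.26 against an EM library left out of the choice. The count of the 99 members called lower by DESeq2 with all libraries (94) was 69 to 98 when a library was left out. It was lowest without DMSO replicate 1. In these fits 0.365 to 0.816% of all genes were called lower. Testing only genes that reached 10 counts in 3 or more libraries left 38 members, all called lower, beside 0.286% of all genes. Nothing is read from this count, since these members passed that minimum through the DMSO libraries. The edgeR quasi-likelihood test called 0 of 53 members tested and 0 of all 19264 genes. Limma voom with sample quality weights called 53 members, beside 0.4% of all genes. With the replicate number as a block, DESeq2 called 88 and edgeR 46 members, beside 0.502% and 0.244% of all genes. Same-numbered libraries did not deviate together (r = -0.15, 0.22 and -0.21 over 13119 genes), so the replicate block rests on a shared number only. With DMSO replicate 2 as the only control, 25 members were called, all 30 tested with edgeR, which called 16.9% of all genes lower, and 39 without independent filtering, an alternative chosen after seeing the data, as was the restriction of the all-library count to members with a read in DMSO replicate 2 (93). Members had so few EM reads that they entered the filtered DESeq2 test and the edgeR test mostly through their reads in DMSO replicate 2. Nothing is read from the counts of these tests with the lone control. The log2 ratio of DMSO replicate 2 to the highest EM library changed sign for patl2 (-0.31, against 0.039 with size factors and 0.019 with TMM factors) and for si:dkey-90l23.1 (-0.12, against 0.22 and 0.20). The cause of these changes was not tested. The counts limit these values, since 85 members had at most 3 reads in every EM library and 32 in DMSO replicate 2.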
